A study of Sus scrofa with 6 samples.

Results

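The enzymes and regulators of glycolysis and glycogen metabolism were compared between longissimus thoracis (LT) and semitendinosus (ST) muscles of Min pigs, a Chinese breed. The set was a list of 41 genes named by their role in the pathways and not by their expression, and 38 of them were found by symbol among the 25973 genes with an mRNA transcript in the files. PGM1, EPM2A and STBD1 carried no symbol of their own and were left out of the counts, and the values at their positions are given further on. RNA of both muscles was taken from each of 3 pigs of the same age labelled as wild type, which gave 3 LT and 3 ST libraries from total RNA depleted of rRNA. LT1 and ST1 are the libraries of pig 1, LT2 and ST2 those of pig 2, and LT3 and ST3 those of pig 3. Whole pieces of muscle were sequenced, so fewer cells of a type and less RNA per cell cannot be told apart. Which portion of ST was sampled is not given in the sources used here. Expression was measured as FPKM, fragments per kilobase of transcript scaled to the mapped fragments of the library, summed over the transcripts of a gene. The summed FPKM of all transcripts lay between 376461 and 404473 per library, and the number of genes above 0.1 FPKM between 17829 and 18352. The number of fragments behind single values is unknown, so no counting interval is given.

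Glycolysis splits glucose 6-phosphate into pyruvate and yields ATP without oxygen, and fast muscle fibres rely on it for short, strong contractions, while slow fibres draw more on oxidation in mitochondria. Glycogen is the store of glucose inside the fibre. It is built on glycogenin by glycogen synthase and the branching enzyme. It is taken down by glycogen phosphorylase, which phosphorylase kinase switches on when calcium rises inside the fibre. Many of these steps have a muscle isozyme and other isozymes that prevail in liver, brain or growing cells.

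The libraries were first checked against marker genes. ACTA1, CKM, NEB and DES, which mark skeletal muscle, had a summed level of 7738, 6986 and 7417 FPKM in LT1, LT2 and LT3 and of 9347, 7423 and 9966 FPKM in ST1, ST2 and ST3, with DES as the most abundant gene over the 6 libraries. The fast fibre markers summed to 38621, 40966 and 29940 FPKM in LT and to 7083, 27753 and 2067 FPKM in ST, with the fast troponin gene TNNC2 as the most abundant. The slow fibre markers summed to 7324, 4769 and 5759 FPKM in LT and to 39652, 6535 and 40212 FPKM in ST, with the light chain gene MYL2 as the most abundant. ST2 therefore stood apart from ST1 and ST3 and lay near LT in both sums. A few genes set by position along the body were then read, chosen after their values were seen. HOXC8, which is set by position along the body axis, had 7.47, 6.65 and 5.92 FPKM in LT and 0.350, 0.262 and 0.242 FPKM in ST. HOXC11 had 0.0375, 0 and 0.101 FPKM in LT and 2.60, 1.95 and 2.17 FPKM in ST. ST2 lay with ST1 and ST3 in both. HOXD8 had 31.3, 34.1 and 45.9 FPKM in LT and 4.04, 5.71 and 2.99 FPKM in ST, where ST2 was the highest of ST and nearest to LT, though below every LT value. ZIC1 had 6.63, 9.09 and 8.44 FPKM in LT and 0.286, 0 and 0.0440 FPKM in ST. Over the 11270 genes with a mean above 1 FPKM, log2 values of ST2 correlated with LT1, LT2 and LT3 at 0.926, 0.939 and 0.921. LT2 is of the same pig. With ST1 and ST3 the correlations were 0.925 and 0.913. These values describe libraries that share genes and are given without a p-value. Because of this split, counts of called genes are given with and without ST2, and so are the adjusted p-values of the genes called without it. ST2 was the ST library nearest to LT in both marker sums, so results without it are a description and no test.

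The most abundant gene of a step had the lower level in ST in 17 of 21 steps, and in 10 of these every ST value lay below every LT value, as in 8.16% of all genes tested. The test of single genes, given next, called none of them without the pig as a block. The 38 genes together took 10.04%, 9.26% and 7.78% of all FPKM in LT1, LT2 and LT3, and 2.65%, 7.36% and 2.53% in ST1, ST2 and ST3. LT averaged 9.03% ± 1.15 and ST 4.18% ± 2.76 (SD, n = 3), and the muscles did not overlap. GAPDH alone accounted for 4.44% ± 0.868 of all FPKM in LT, against 2.35% ± 1.31 in ST (SD, n = 3), and here the muscles overlapped, with 3.86% in ST2 and 3.82% in LT3. Summed by step, 17 of 21 steps were lower in ST, among them 9 of the 10 steps of glycolysis. The exception in glycolysis was hexokinase, with 10.7 ± 2.32 FPKM in LT and 18.4 ± 0.937 FPKM in ST (SD, n = 3). No test was made on these sums.

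Gene by gene, the muscles were compared by limma on log2(FPKM + 0.1) over 19679 genes, and a gene was called when its p, adjusted by the Benjamini-Hochberg method, was under 0.05 and its log2 fold change beyond 1 in either direction. The fold changes are on this scale and understate those of genes with low FPKM. Limma called 114 genes, 0.579% of those tested, with 81 higher and 33 lower in ST. It called 0 of the 38, the smallest adjusted p being 0.0572 for PPP1R3D, while 24 of the 38 had an unadjusted p under 0.05. Of these 24, 17 were lower in ST, where 5.88% of all genes passed that level as lower, and 7 were higher, where 13.1% did. The median log2 fold change of the 38 genes was -0.54, against 0.13 over all genes tested. With quantile normalization the medians were -0.67 and -0.01.

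The muscles of the same pig are paired, and with the pig as a block limma called 838 genes, 4.26% of those tested. Among the 38, it called 8. GPI, PGAM2, PYGM, PHKA1, PHKG1 and PPP1R3D fell in ST, where 1.31% of all genes were called as lower. PFKFB2 and GBE1 rose, where 2.95% were called as higher. Without ST2 and without the block, 1006 genes were called, 5.15% of those tested, and 20 of the 38, with 17 lower and 3 higher in ST, where 1.81% and 3.34% of all genes were. The 17 were GPI, PFKM, PFKFB1, PFKFB3, ALDOA, TPI1, GAPDH, PGK1, PGAM2, ENO3, PKM, PYGM, PHKA1, PHKB, PHKG1, PPP1R3A and PPP1R3D, and the 3 were PFKFB2, PGAM1 and GBE1. In that fit the log2 fold changes of all 20 lay farther from 0. They went from -1.74 to -2.69 for PFKM, from -1.44 to -2.20 for PKM and from -2.14 to -2.90 for PHKA1. PFKFB1 went from -1.71 to -2.40 and PGAM2 from -2.05 to -2.75, while PPP1R3D moved least, from -1.26 to -1.28. ST2 was the highest ST library in 19 of the 21 genes lower in ST and the lowest in 9 of the 17 higher ones. Leaving out such a library widens the difference by itself, so the calls and adjusted p-values without ST2 are a description and no test. Without both libraries of pig 2, and also without the block, 248 genes were called, 1.28% of those tested. Among the 38, 7 were called, with 6 lower and 1 higher in ST, where 0.53% and 0.746% of all genes were. The 6 were PFKFB3, ALDOA, ENO3, PHKA1, PHKB and PHKG1, and the 1 was GBE1. Of the 8 genes called with the block, PHKA1, PHKG1 and GBE1 were thus called without pig 2 as well, whereas limma gave adjusted p-values of 0.0801 for GPI, 0.0688 for PGAM2, 0.0660 for PYGM, 0.113 for PPP1R3D and 0.0633 for PFKFB2. The fit without pig 2 differs from the block fit in its libraries and in ignoring the pairing. In a lost call the parts of these cannot be told apart.

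The groups did not overlap for 20 of the 38 genes, a share to be read beside 24.8% of all genes tested. All 3 ST values lay below all 3 LT values for 12 of them, where 8.16% of all genes did so, and above for 8, where 16.7% did so. With 3 libraries against 3 the smallest p of a 2-sided exact permutation test is 0.1, so such a test could call none of them.

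**Figure D1:**
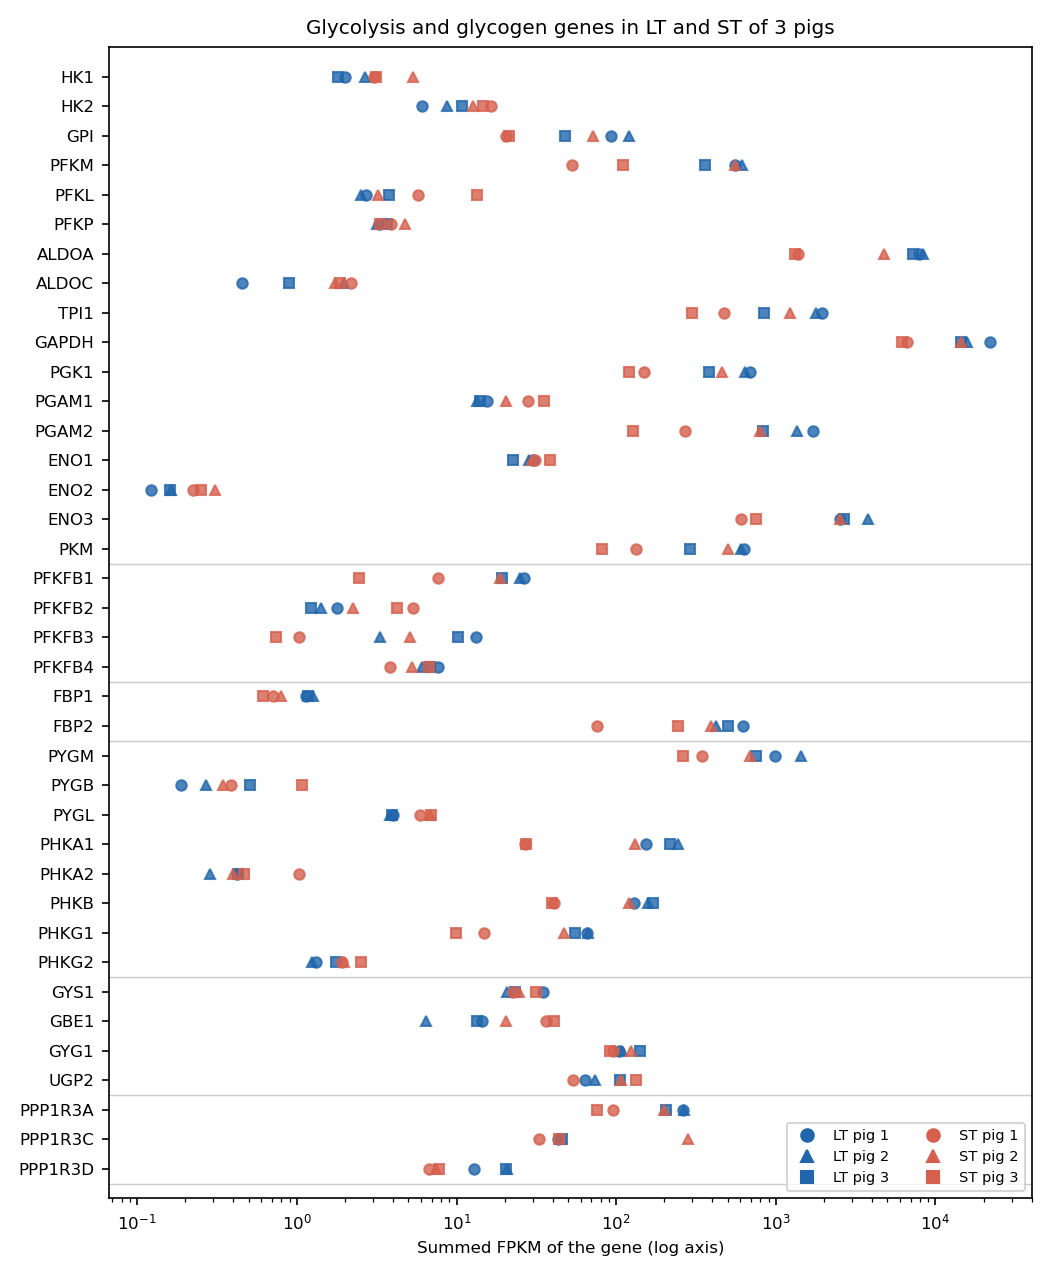
Summed FPKM of the 38 genes in each library on a log axis, with LT in blue, ST in red and a symbol for each pig, and grey lines between the pathways (from the top: glycolysis, control of fructose 2,6-bisphosphate, the fructose bisphosphatases, glycogen breakdown, glycogen synthesis, glycogen scaffolds). In 19 of the 21 genes that were lower in ST, the triangle of ST2 is the highest ST value.

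Glycolysis opens with hexokinase, which phosphorylates glucose. HK2, the main hexokinase of muscle, had 6.08, 8.68 and 10.8 FPKM in LT and 16.4, 12.6 and 14.6 FPKM in ST. Every ST value lay above every LT value, and the difference was 0.79 on the log2 scale (SE 0.24, adjusted p = 0.134 from limma, and 0.0938 without ST2). HK1, which prevails in brain and red cells, was at 2.17 ± 0.464 FPKM in LT and 3.84 ± 1.30 FPKM in ST (SD, n = 3), with no overlap either.

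GPI, which turns glucose 6-phosphate into fructose 6-phosphate, had 93.0, 120.4 and 47.9 FPKM in LT and 20.3, 71.6 and 21.4 FPKM in ST. ST1 and ST3 lay below every LT library, while ST2 lay above LT3. GPI was called with the pig as a block (log2 fold change -1.37, SE 0.28, adjusted p = 0.0419 from limma) and not without it (adjusted p = 0.212), and without ST2 its adjusted p was 0.0278. The files place it on chromosome 6 from 43933759 to 44069330, a span 4.38 times that of the RefSeq gene, so its sum may hold transcripts that reach into neighbours.

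PFKM, the muscle phosphofructokinase, commits the sugar to glycolysis. It had 555, 614 and 358 FPKM in LT and 53.1, 555 and 111 FPKM in ST. ST2 lay as high as LT1, whereas ST1 and ST3 lay below every LT library. The log2 fold change was -1.74 (SE 0.75) with an adjusted p of 0.258 from limma, of 0.110 with the block and of 0.0117 without ST2. The liver isozyme PFKL had 2.72, 2.51 and 3.78 FPKM in LT and 5.72, 3.21 and 13.5 FPKM in ST, where ST2 lay inside the range of LT and ST3 far above it (adjusted p = 0.265 from limma). PFKP was at 3.37 ± 0.274 FPKM in LT and 3.996 ± 0.715 FPKM in ST (SD, n = 3).

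ALDOA, the muscle aldolase that splits fructose 1,6-bisphosphate, was the second most abundant of the 38. It had 7885, 8312 and 7201 FPKM in LT and 1372, 4794 and 1328 FPKM in ST. No ST value reached LT, and the LT mean was 3.12 times the ST mean. The log2 fold change was -1.92 (SE 0.54), with an adjusted p of 0.118 from limma, of 0.0578 with the block and of 0.00331 without ST2. A further transcript of another gene ID on the same strand, ENSSSCT00000053933, overlapped ALDOA on chromosome 3 from 18246369 to 18260163 and was not in the sum. It had 2089, 2236 and 2258 FPKM in LT and 422, 1342 and 408 FPKM in ST. ALDOC, the brain aldolase, was at 1.10 ± 0.777 FPKM in LT and 1.93 ± 0.234 FPKM in ST (SD, n = 3). Its locus in the files spans 10.3 times the RefSeq gene, and a transcript of 20 exons, ENSSSCT00000040239, carried 93.2% of its LT level, so the sum may hold transcripts of neighbours.

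TPI1, which interconverts the triose phosphates, had 1955, 1789.6 and 842 FPKM in LT and 474, 1233 and 299 FPKM in ST. GAPDH, which oxidizes glyceraldehyde 3-phosphate, was the most abundant of the 38 and had 21967, 15852 and 14432 FPKM in LT and 6622, 14541 and 6130.5 FPKM in ST. PGK1, whose step yields the first ATP of the pathway, had 686, 646 and 383 FPKM in LT and 149.8, 463 and 120.5 FPKM in ST. In all 3 genes ST2 lay inside the range of LT, and ST1 and ST3 lay below it. Their log2 fold changes were -1.36 for TPI1, -1.03 for GAPDH and -1.45 for PGK1. Limma gave adjusted p-values of 0.236, 0.332 and 0.177 for them, of 0.0640, 0.266 and 0.0568 with the block, and of 0.0395, 0.0410 and 0.0134 without ST2. GAPDH has near-identical copies in mammalian genomes, and how reads shared by such copies were assigned is not given in the sources used here, so its level is uncertain.

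PGAM2, the muscle phosphoglycerate mutase on chromosome 18 from 48693882 to 48713862, had 1719, 1362 and 829.5 FPKM in LT and 269.5, 793 and 128 FPKM in ST. ST lay below LT throughout, although ST2 came close to LT3. PGAM2 fell with the pig as a block (log2 fold change -2.05, SE 0.41, adjusted p = 0.0397 from limma), while without the block its adjusted p was 0.137, and 0.0148 when ST2 was left out. PGAM1, the form of brain and most other tissues, had 15.6, 13.3 and 14.1 FPKM in LT and 28.1, 20.4 and 35.5 FPKM in ST. Its values did not overlap either, in the other direction. With the block its adjusted p was 0.0399, but its log2 fold change of 0.93 lay below the level needed for a call. Without ST2 it was called, with a log2 fold change of 1.14 and an adjusted p of 0.0203 from limma.

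ENO3, the muscle enolase, had 2536, 3783 and 2685 FPKM in LT and 605, 2512 and 749 FPKM in ST. ST2 lay just under LT1, and the groups did not overlap. PKM, the pyruvate kinase of muscle, had 628, 607 and 289 FPKM in LT and 133, 504 and 81.6 FPKM in ST. Here ST2 lay above LT3. Limma gave log2 fold changes of -1.50 (adjusted p = 0.188) for ENO3 and -1.44 (adjusted p = 0.271) for PKM, and without ST2 adjusted p-values of 0.00856 and 0.0239. ENO1 was at 27.1 ± 3.96 FPKM in LT and 33.0 ± 4.77 FPKM in ST, and ENO2, the enolase of neurons, at 0.148 ± 0.0231 and 0.261 ± 0.0428 FPKM (SD, n = 3). The locus of ENO2 spans 4.09 times the RefSeq gene, with the same limit.

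Fructose 2,6-bisphosphate is the strongest activator of phosphofructokinase and is made and removed by the bifunctional enzymes of the PFKFB family, which differ in the balance of the kinase and phosphatase activities. PFKFB1, the liver and muscle form, had 26.6, 25.1 and 19.3 FPKM in LT and 7.70, 18.6 and 2.44 FPKM in ST. PFKFB2, the heart form, had 1.80, 1.41 and 1.23 FPKM in LT and 5.36, 2.25 and 4.22 FPKM in ST. Both were without overlap, in opposite directions. PFKFB2, on chromosome 9 from 67680507 to 67709522, rose with the block (log2 fold change 1.29, SE 0.25, adjusted p = 0.0384 from limma). Without the block its adjusted p was 0.0995, and 0.0147 without ST2. PFKFB1 had a log2 fold change of -1.71 with an adjusted p of 0.187 from limma, of 0.0642 with the block and of 0.0261 without ST2. The ratio of PFKFB1 to PFKFB2 came to 14.8, 17.8 and 15.7 in LT, against 1.44, 8.28 and 0.578 in ST. PFKFB3, which favours the kinase activity, had 13.2, 3.32 and 10.2 FPKM in LT and 1.03, 5.14 and 0.737 FPKM in ST. It had the largest negative log2 fold change of the 38, -2.19 (SE 0.74, adjusted p = 0.165 from limma), yet in pig 2 it was higher in ST. Limma called PFKFB3 without ST2 (log2 fold change -3.002, adjusted p = 0.0254) and without both libraries of pig 2 (-3.59, adjusted p = 0.0167). PFKFB4 was at 6.83 ± 0.777 FPKM in LT and 5.27 ± 1.45 FPKM in ST (SD, n = 3).

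Fructose bisphosphatase runs the phosphofructokinase step in reverse. FBP2, the muscle isozyme, had 620.0, 422 and 504 FPKM in LT and 75.4, 391 and 245 FPKM in ST. The groups did not overlap, and ST2 again lay nearest to LT. FBP2 was thus lower together with PFKM, and the ratio of PFKM to FBP2 came to 0.895, 1.45 and 0.711 in LT, against 0.704, 1.42 and 0.453 in ST, with overlap between the muscles. FBP1, the liver isozyme, was at 1.19 ± 0.0587 FPKM in LT and 0.706 ± 0.0916 FPKM in ST (SD, n = 3), also without overlap. Limma called neither with or without the block or without ST2, where the adjusted p of FBP2 was 0.0586.

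In glycogen breakdown, PYGM, the muscle phosphorylase that releases glucose 1-phosphate, had 983, 1430.0 and 748 FPKM in LT and 346, 687 and 264 FPKM in ST. In these sums no ST value reached the lowest LT value. PYGM fell with the block (log2 fold change -1.36, SE 0.23, adjusted p = 0.0308 from limma), and without the block its adjusted p was 0.136, and 0.0234 without ST2. It lies on chromosome 2 from 7391064 to 7421261 in the files, a span 2.53 times that of the RefSeq gene, so its sum too may hold transcripts of neighbours. In LT3 a transcript over the whole span, ENSSSCT00000059278, had 348 of the 748 FPKM, and the main one, ENSSSCT00000083511, had 921, 1365 and 249 FPKM in LT and 313, 655 and 244 FPKM in ST, with overlap between the muscles. PYGL, the liver isozyme, had 3.98, 3.81 and 3.93 FPKM in LT and 5.88, 6.79 and 6.93 FPKM in ST. All 3 ST libraries, ST2 included, lay above LT, with a log2 fold change of 0.72 (SE 0.17, adjusted p = 0.0807 from limma, and 0.0752 without ST2). PYGB, the brain isozyme, was at 0.322 ± 0.168 FPKM in LT and 0.604 ± 0.416 FPKM in ST (SD, n = 3).

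Phosphorylase kinase is built of the regulatory subunits alpha and beta, the catalytic subunit gamma and calmodulin. PHKA1, the muscle alpha subunit on chromosome X from 58455938 to 58583216, had 154, 244 and 218 FPKM in LT and 26.9, 131 and 27.1 FPKM in ST. It was called with the block (log2 fold change -2.14, SE 0.38, adjusted p = 0.0327 from limma) and not without it (adjusted p = 0.110), and without ST2 its adjusted p was 0.00251. PHKB, the beta subunit, had 129, 157 and 169.8 FPKM in LT and 41.0, 119.6 and 39.5 FPKM in ST. PHKG1, the muscle gamma subunit on chromosome 3 from 16822043 to 16834329, had 65.6, 66.8 and 55.5 FPKM in LT and 14.8, 47.2 and 9.92 FPKM in ST. The muscles did not overlap for any of the 3 subunits. PHKG1 fell with the block (log2 fold change -1.70, SE 0.36, adjusted p = 0.0472 from limma; 0.128 without it), and PHKB had a log2 fold change of -1.38 with an adjusted p of 0.0566 under the block and of 0.133 without it. Without ST2 limma gave adjusted p-values of 0.00352 for PHKG1 and 0.00405 for PHKB. The alpha subunit differed more than the beta subunit in each pig, and the ratio of PHKA1 to PHKB came to 1.19, 1.55 and 1.29 in LT, against 0.657, 1.09 and 0.685 in ST. The liver subunit PHKA2 had 0.419, 0.285 and 0.430 FPKM in LT and 1.03, 0.401 and 0.469 FPKM in ST, with overlap (adjusted p = 0.457 from limma). PHKG2 was at 1.44 ± 0.287 FPKM in LT and 2.13 ± 0.325 FPKM in ST (SD, n = 3), without overlap (adjusted p = 0.247 from limma).

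Of the 8 genes of glycogen breakdown 4 were lower and 4 higher in ST, with a median log2 fold change of -0.41, and of the 4 genes of glycogen synthesis 1 was lower and 3 were higher, with a median of 0.12. UGP2, which makes UDP-glucose, had 63.7, 73.7 and 105 FPKM in LT and 53.9, 108 and 134 FPKM in ST. GYG1, the primer glycogenin, had 103, 109 and 140.3 FPKM in LT and 96.1, 123 and 91.6 FPKM in ST. GYS1, the muscle glycogen synthase, had 34.8, 20.6 and 23.2 FPKM in LT and 22.7, 24.7 and 31.3 FPKM in ST. The muscles overlapped for all 3, and limma gave log2 fold changes of 0.22 (SE 0.36), -0.18 (SE 0.21) and 0.03 (SE 0.24). That of GYS1 was below 0 under quantile normalization and median scaling. With the most abundant GYS1 transcript alone, at 0 FPKM in LT1, it was 2.98. GBE1, the branching enzyme on chromosome 13 from 173634454 to 173976255, had 14.5, 6.44 and 13.5 FPKM in LT and 36.4, 20.4 and 40.7 FPKM in ST. Every pig had more GBE1 in ST, by 1.32, 1.65 and 1.59 on the log2 scale in pigs 1, 2 and 3. GBE1 rose with the block (log2 fold change 1.52, SE 0.16, adjusted p = 0.0136 from limma), the smallest adjusted p of the 38 in that fit, while without the block its adjusted p was 0.0912, and 0.0300 without ST2. With its most abundant transcript alone, ENSSSCT00000043353, which had 0 FPKM in LT2, the log2 fold change was 3.28. The ratio of PYGM to GYS1 came to 28.3, 69.3 and 32.3 in LT, against 15.2, 27.8 and 8.41 in ST, and that of GBE1 to GYS1 came to 0.418, 0.312 and 0.583 in LT, against 1.60, 0.826 and 1.30 in ST. Neither ratio overlapped between the muscles.

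The targeting subunits bring protein phosphatase 1 to glycogen, where it switches glycogen synthase on and phosphorylase off. PPP1R3A, the subunit of striated muscle, had 263, 265 and 205 FPKM in LT and 95.8, 199 and 75.4 FPKM in ST, with an adjusted p of 0.155 from limma, of 0.0556 with the block and of 0.0127 without ST2 for a log2 fold change of -1.10. PPP1R3D, on chromosome 17 from 59964585 to 59967113, had 12.9, 20.8 and 20.3 FPKM in LT and 6.68, 7.40 and 7.75 FPKM in ST. In PPP1R3D, unlike most of the set, ST2 lay between ST1 and ST3, and its log2 fold change of -1.26 had an adjusted p of 0.0572 from limma, of 0.0222 with the block (SE 0.17) and of 0.0336 without ST2. PPP1R3C, singled out after its values were seen, had 43.1, 44.8 and 46.0 FPKM in LT and 32.6, 279.8 and 43.8 FPKM in ST. ST2 alone stood out, and without it the log2 fold change went from 0.72 to -0.24.

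The remaining genes were matched by position on Sscrofa11.1, at a reciprocal overlap of at least 0.5 between a transcript and the RefSeq gene. PGM1, phosphoglucomutase, links glucose 1-phosphate from glycogen to glycolysis. The 2 transcripts at its place, listed under the symbol of the neighbour EFCAB7, summed to 799, 896 and 731 FPKM in LT and 56.8, 406 and 82.2 FPKM in ST. ST lay below LT throughout. One of them, ENSSSCT00000053059, spans 54.6% of the RefSeq gene and had 447, 540.4 and 409 FPKM of the sum in LT. STBD1, which tethers glycogen to membranes, summed to 120.6, 111.4 and 67.8 FPKM in LT and 54.2, 37.6 and 35.1 FPKM in ST, also without overlap. EPM2A, the glycogen phosphatase laforin, whose transcripts carry the symbol of FBXO30, summed to 30.6, 19.1 and 30.5 FPKM in LT and 30.3, 21.9 and 21.2 FPKM in ST, which overlapped. No test was made on these sums.

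**Figure D2:**
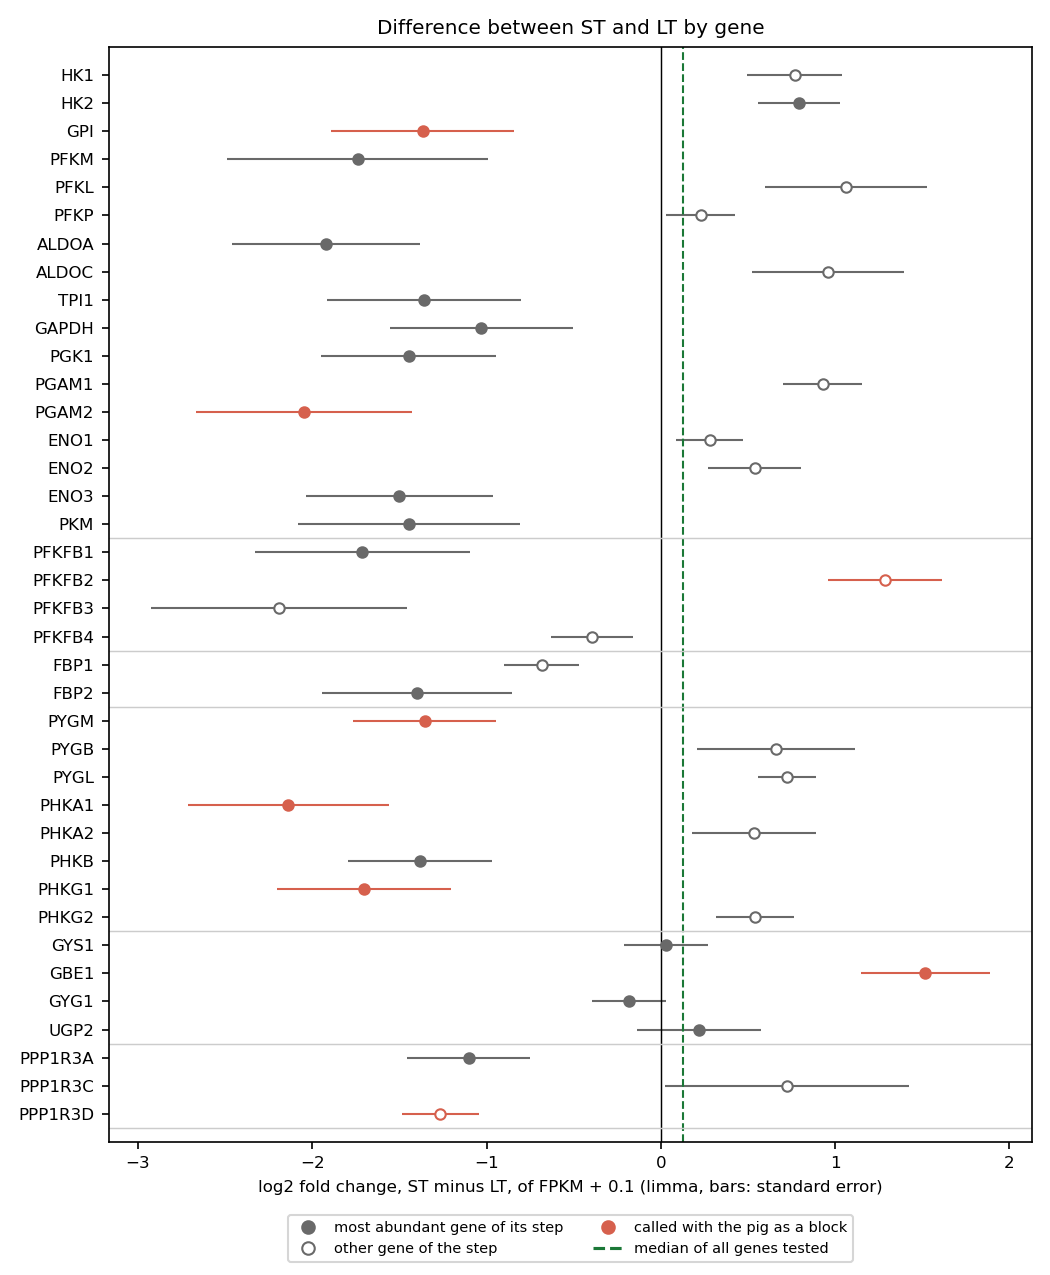
Log2 fold change of ST against LT for the 38 genes, in the same order as in the plot of levels, with the standard error from limma without a block as bars. Filled points are the most abundant gene of a step, open points the other genes, red points the 8 called with the pig as a block, and the dashed green line is the median of all genes tested, 0.13. GYS1 lies next to 0, and is below it under quantile normalization and median scaling and at 2.98 with its most abundant transcript alone.

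The genes were also grouped by whether they were the most abundant of their step. Of the 21 most abundant genes, 17 were lower in ST and 4 were higher, with a median log2 fold change of -1.38. Of the 17 other genes, 4 were lower and 13 were higher, with a median of 0.54. Over all genes tested 39.0% were lower in ST. Among the 394 genes of the whole table with a mean above 100 FPKM, the median was 0.07 and 47.2% were lower in ST. The 11 steps with more than 1 measured gene were not alike. The log2 fold changes were 0.77 and 0.79 for HK1 and HK2, -0.68 and -1.40 for FBP1 and FBP2, and -0.40 for PFKFB4, whose muscles overlapped, and limma called none of these 5 with or without the block or without ST2. HK2 made up 79.1% ± 5.74 of hexokinase in LT and 79.0% ± 7.62 in ST (SD, n = 3), and FBP2 over 99% of its step in every library, with overlap between the muscles in both. In other steps an isozyme of low level took a larger share in ST. PGAM1 made up 1.18% ± 0.428 of the phosphoglycerate mutase FPKM in LT and 11.2% ± 9.72 in ST (SD, n = 3), with 9.45%, 2.51% and 21.7% in ST1, ST2 and ST3. PFKL made up 0.642% ± 0.343 of phosphofructokinase in LT and 6.75% ± 5.40 in ST (SD, n = 3), where ST2, at 0.570%, lay inside the range of LT. PFKFB2 made up 3.62% ± 0.331 of its family in LT and 22.3% ± 13.1 in ST (SD, n = 3). PHKG2 made up 2.29% ± 0.695 of the gamma subunits in LT and 11.9% ± 8.10 in ST (SD, n = 3). PYGL remained under 3% of phosphorylase in every library, with 0.397% ± 0.128 in LT and 1.73% ± 0.788 in ST (SD, n = 3). In PGAM1, PFKFB2, PHKG2 and PYGL no ST library reached down to LT, ST2 included. No test was made on the shares.

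**Figure D3:**
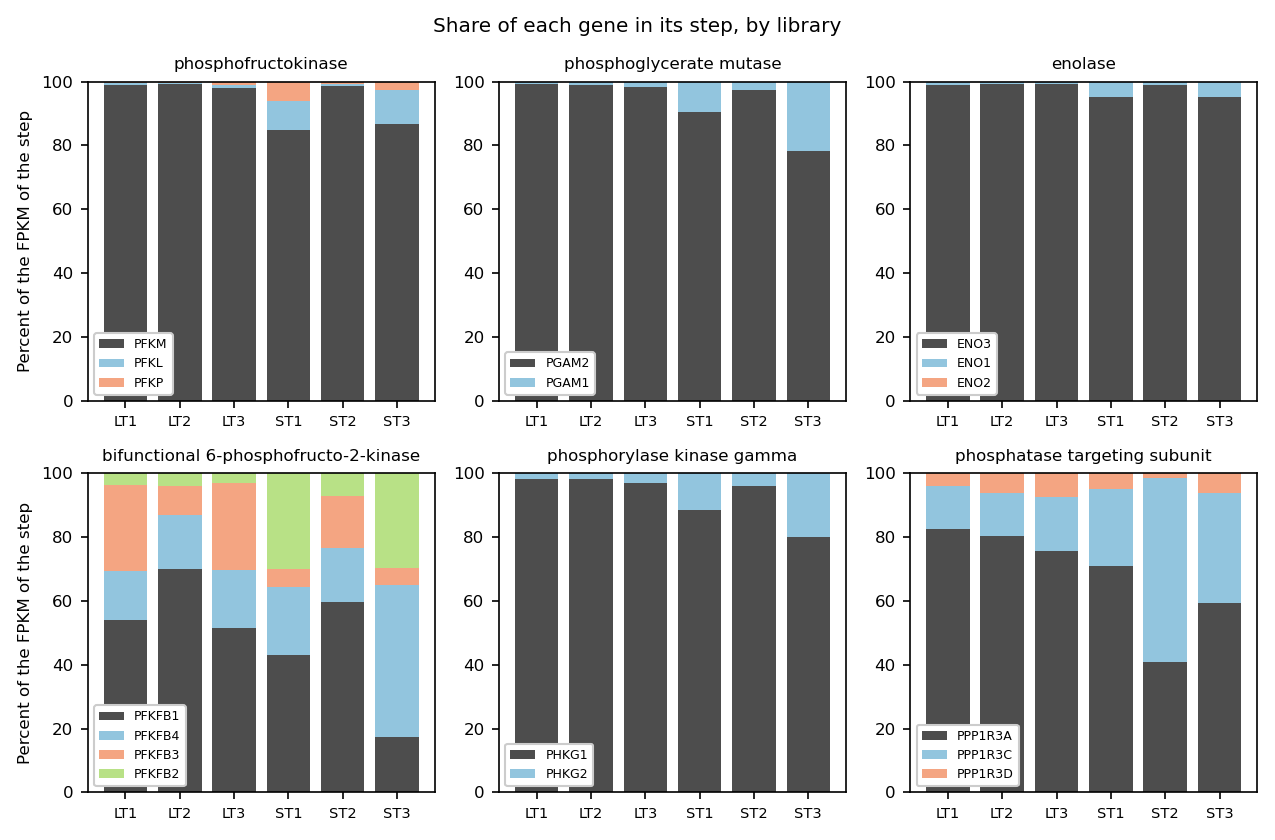
Percent of the summed FPKM of a step that each of its genes takes in each library, for 6 steps with more than 1 gene, with LT1 to LT3 on the left and ST1 to ST3 on the right of each panel. In phosphofructokinase, phosphoglycerate mutase, enolase and the gamma subunit the muscle isozyme, in dark grey, takes a smaller share in ST1 and ST3 than in ST2.

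Within pigs, 19 of the 38 genes were lower in ST in all 3 pigs, where 15.9% of all genes were, and 12 were higher in all 3, where 32.1% were. The remaining 7 were not in the same direction in each pig. The size of the difference was smaller in pig 2. Over the 21 most abundant genes the median of ST minus LT on the log2 scale was -2.04 in pig 1, -0.41 in pig 2 and -1.50 in pig 3. Over all 38 it was -0.78, -0.12 and -0.73. ST2 had the highest ST value in 19 of the 21 genes that were lower in ST, the exceptions being PFKFB4 and PPP1R3D, while this was so for 34.1% of all genes that were lower in ST.

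In the fibre markers, too, the difference was smallest in pig 2. All 10 fast fibre markers were lower in ST, with a median log2 fold change of -2.36 (-3.48 without ST2). The median within pigs was -2.60, -0.57 and -4.12 in pigs 1, 2 and 3. Limma called none of the 10 with or without the block, although 8 had an unadjusted p under 0.05 without it and 10 with it, and called 9 of them without ST2. All 9 slow fibre markers were higher in ST, with a median of 1.81 (2.59 without ST2) and medians within pigs of 2.33, 0.79 and 2.68. Limma called none without the block, where all 9 had an unadjusted p under 0.05, 5 with it (TNNT1, MYL3, ATP2A2, MYOZ2 and TPM3) and all 9 without ST2. Of all genes 1.31% were called as lower and 2.95% as higher with the block, and 1.81% and 3.34% without ST2. ST2 was set apart by the sums of these same markers, so their calls without it are a description and no test. The slow troponin gene TNNT1 had 348, 207 and 246 FPKM in LT and 1746, 382 and 2079 FPKM in ST. The share of mitochondrial transcripts, as FPKM times length, amounted to 3.31%, 2.91% and 4.25% in LT, against 8.06%, 6.15% and 8.48% in ST. The part of fibre type in the differences of the glycolytic and glycogen genes was not tested.

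**Figure D4:**
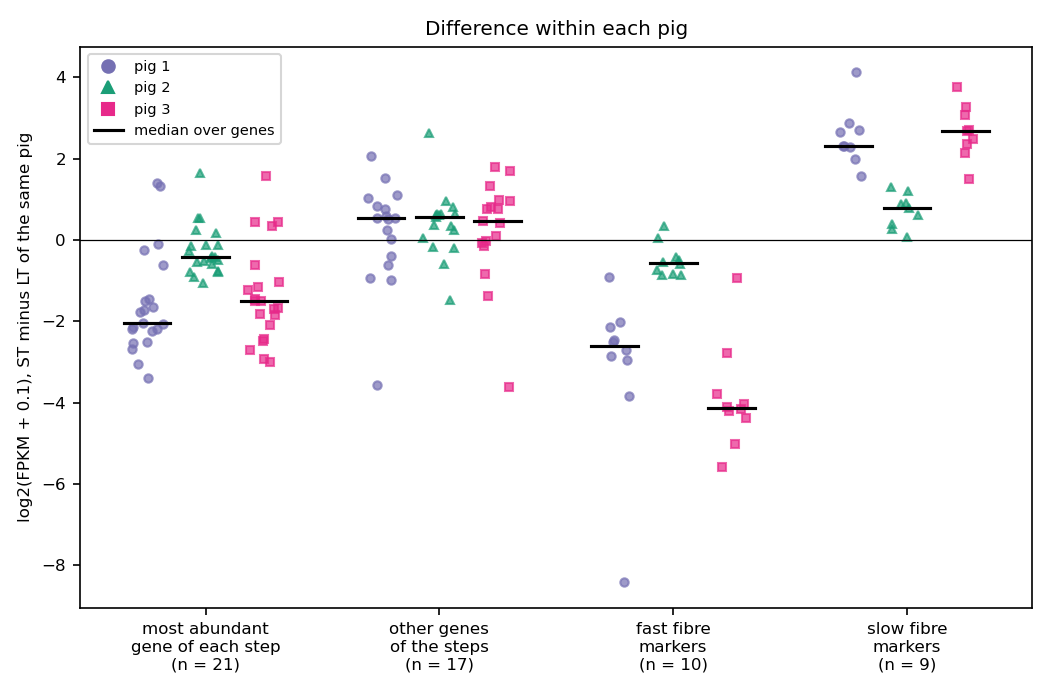
Log2(FPKM + 0.1) of ST minus LT in the same pig for each gene, by pig, for the 21 most abundant genes of the steps, the 17 other genes of the steps, and the fast and slow fibre markers. Black bars are medians over genes. For the most abundant genes the bars lie at -2.04, -0.41 and -1.50, nearest to 0 in pig 2, as they do for both lists of fibre markers.

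A further 46 genes that border on these pathways were listed, of which 43 were found and 38 passed the FPKM filter. They were split, with 21 lower and 17 higher in ST and a median log2 fold change of -0.09. Limma called 1 without the block, PPP1R3G, and 12 with it, 8 lower and 4 higher, while without ST2 it called 8 as lower and 2 as higher. Of all genes 0.579% were called without the block, 1.31% as lower and 2.95% as higher with it, and 1.81% and 3.34% without ST2. LDHA, which turns pyruvate into lactate and was the most abundant of them, had 2092, 2672 and 935 FPKM in LT and 194, 411 and 70.7 FPKM in ST. All ST libraries, ST2 included, lay below LT, and LDHA fell with the block (log2 fold change -3.28, SE 0.27, adjusted p = 0.00961 from limma; 0.0655 without it and 0.0127 without ST2). Without both libraries of pig 2, and also without the block, LDHA was not called (log2 fold change -3.58, adjusted p = 0.0567 from limma). Over the alternatives tried the log2 fold change of LDHA lay between -10.5 and -2.62. PPP1R3G, a further glycogen targeting subunit, had 2.43, 2.43 and 1.32 FPKM in LT and 17.1, 7.41 and 25.4 FPKM in ST. It rose by 2.83 on the log2 scale (SE 0.44, adjusted p = 0.0424 from limma). The call was lost under 11 of the alternatives tried.

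Further genes of this list that were called with the block were PDHA1, PC, TIGAR and PGM2. PDHA1, a subunit of pyruvate dehydrogenase, had 93.7, 94.1 and 84.7 FPKM in LT and 174, 184 and 241 FPKM in ST. It rose with the block (log2 fold change 1.12, adjusted p = 0.0319 from limma; 0.0577 without it, 0.0228 without ST2 and 0.0801 without both libraries of pig 2). PC, pyruvate carboxylase, had 11.7, 11.05 and 12.5 FPKM in LT and 4.82, 6.23 and 2.23 FPKM in ST. It fell with the block (log2 fold change -1.51, adjusted p = 0.0412 from limma; 0.0798 without it, 0.0228 without ST2 and 0.0801 without both libraries of pig 2). TIGAR, which degrades fructose 2,6-bisphosphate, was at 3.98 ± 0.678 FPKM in LT and 8.66 ± 1.71 FPKM in ST, and the phosphopentomutase PGM2 at 1.24 ± 0.194 and 2.80 ± 0.752 FPKM (SD, n = 3). Both rose with the block (adjusted p = 0.0248 and 0.0419 from limma, 0.0678 and 0.0829 without it), and neither was called without ST2 or without both libraries of pig 2. The fits without ST2 and without pig 2 had no block.

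Markers of other cells in the muscle were measured beside the set. All 5 endothelial markers had a higher mean in ST, their sum being 76.2, 53.3 and 61.0 FPKM in LT and 172, 118 and 137 FPKM in ST. In this sum, led by PECAM1, ST2 lay with ST1 and ST3. Not every marker did so: in ST2 KDR, at 7.99 FPKM, lay inside the range of LT, and CLDN5, at 4.62 FPKM, below every LT value. The medians within pigs were 1.16, 0.69 and 1.10 in pigs 1, 2 and 3. Limma called 2 of them, PECAM1 (log2 fold change 1.39, adjusted p = 0.0424) and CDH5 (1.22, adjusted p = 0.0399), and with the block also KDR. The call was lost under 11 of the alternatives tried for PECAM1, with log2 fold changes of 1.23 to 2.36 there, and under 10 for CDH5, with 1.04 to 1.25. All 6 adipocyte markers had a log2 fold change below 0, and limma called none, with 1 at an unadjusted p under 0.05. The pigs differed, with medians of 0.06, -0.64 and -1.47 in pigs 1, 2 and 3. Their sum was 270.3, 215 and 339 FPKM in LT and 276, 172 and 227 FPKM in ST, with CFD as the most abundant. The fibroblast markers summed to 1016 ± 360.2 FPKM in LT and 952 ± 287 FPKM in ST, led by COL3A1, and the leukocyte markers to 17.5 ± 1.86 and 26.9 ± 10.1 FPKM, led by CD163 (SD, n = 3). The erythroid markers, led by HBB, summed to 849 ± 190.1 FPKM in LT and 764 ± 228 FPKM in ST, the nerve markers, led by MBP, to 15.8 ± 13.04 and 10.6 ± 6.80 FPKM, and the smooth muscle markers, led by TAGLN, to 113 ± 14.2 and 158 ± 20.4 FPKM (SD, n = 3). Limma called none of these 23 markers with or without the block or without ST2, with 4 at an unadjusted p under 0.05 without the block and 9 with it. No marker of these lists was at or below 0.1 FPKM in all libraries. PFKL, PGAM1, PYGL, PHKG2 and the other isozymes with a higher mean in ST are also expressed in such cells, and the part of cell makeup was not tested.

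The sums rest on 154 listed transcripts, of which 123 passed the FPKM filter, and limma called 0 of these, where 0.146% of all transcripts were called, with 44 of the 123 at an unadjusted p under 0.05, where 9.69% of all transcripts were. Some genes rest on a single transcript, such as PGAM2, PGAM1, PHKG1 and PPP1R3A. In GAPDH a pair of transcripts carried 47.1% and 52.9% of the LT level and 47.4% and 52.6% of the ST level. In PFKM the split differed between libraries of the same muscle, with ENSSSCT00000043706 at 380 FPKM in LT1, 0.171 in LT2 and 0.131 in LT3, and at 1.77, 207 and 90.9 FPKM in ST. The level of a single PFKM transcript is therefore not read here, and its gene sum is.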

How the data were processed

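RNA from LT and ST of 3 pigs was sequenced in 6 libraries. The authors filtered reads with SOAPnuke, aligned them with HISAT2 to the pig genome Sscrofa11.1, assembled transcripts with StringTie (named in the submitters' processing notes too), and deposited FPKM per transcript, 72511 per file. How strand and multi-mapped reads were counted is not given in the sources used here. FPKM of mRNA transcripts was summed per gene ID, and genes above 0.1 FPKM in at least 1 library were tested.

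Limma 3.58.1 in R 4.3.3, with a variance trend on log2(FPKM + 0.1), compared ST with LT over all genes, after testing on simulated data. The pairing by pig comes from the study's methods and the numbers in the labels. Deviations from the muscle means correlated at 0.356, 0.350 and 0.355 within pigs and from -0.265 to -0.127 between pigs, over 11270 genes. Deviations within a muscle cancel out for each gene, so positive values within pigs push those between pigs to be negative. The contrast is therefore a description and no test of the pairing. The p-values measure the spread between these pigs. Sums, shares and ratios came from Python 3.11.15 with pandas 2.3.3, scipy 1.17.1 and numpy 2.4.6, and plots drawn with matplotlib 3.10.9.

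The set, the lists of further genes and markers, and the tests were chosen with earlier results of these data known. Given in full were the most abundant gene of each step, every gene called with or without the block and the 12 with the smallest p. Of each other list, up to 6 called genes and the most abundant were named. Symbols came from a reference list of gene names, matched on the gene IDs in the files. All 38 loci overlapped the RefSeq gene of that symbol, and 8 spanned over 1.5 times its length. Genes without a symbol were matched to RefSeq positions on Sscrofa11.1 at a reciprocal overlap of 0.5. Promoter sequences were not analysed here. Alternatives were other pseudocounts and FPKM filters, the pig as a block, 3 rescalings, no variance trend, annotated or most abundant transcripts alone, and leaving out each library. Leaving out both libraries of pig 2, and ST2 for overlap and marker counts, was added after seeing the data. Fits that left out libraries had no block.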

Additional observations from a re-analysis of the deposited data

How the results depend on the processing

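The number of all genes called was 114 (81 higher, 33 lower in ST) and went to 79 with median scaling (48 higher, 31 lower), 6 without the FPKM filter, 62 with quantile normalization (33 higher, 29 lower), 264 with FPKM rescaled to nuclear transcripts (216 higher, 48 lower), 31 without a variance trend (17 higher, 14 lower), 53 with the most abundant transcript alone (32 higher, 21 lower), 838 with the replicate block, 11 to 1006 when single libraries were left out, the highest without ST2 and the lowest without LT3, and 248 without both libraries of pig 2 (145 higher, 103 lower). Of the 38 pathway genes, 0 were called, 1 with a mean above 1 FPKM, 8 with the replicate block, 0 to 20 when single libraries were left out, and 7 without both libraries of pig 2. Their median log2 fold change of -0.54 went to -1.07 with a mean above 1 FPKM, where 34 remained, and to -0.35 with a pseudocount of 1, and lay between -0.60 and -0.44 when single libraries were left out. The median over all genes moved from 0.13 to -0.01 with quantile normalization and 0.01 with median scaling. The count of 20 without overlap, where 24.8% of all genes did not overlap, lay between 21 and 31 when single libraries were left out, where 31.9% to 42.8% of all genes did not, and was 33 without both libraries of pig 2, where 51% did not. With fewer libraries groups overlap less often in all genes, so the rise in this count is not a result about the 38. With all 6 libraries the count was 17 with quantile normalization (24.9% of all genes) and 17 with FPKM rescaled to nuclear transcripts (26.7%). It was 18 with median scaling (25.1%) and 16 with the most abundant transcript alone (22.1%). The count of 17 lower steps lay between 17 and 18. GYS1 changed sign, to -0.041 with quantile normalization, -0.11 with median scaling and -0.088 without both libraries of pig 2. It ranged from -0.12 to 0.25 when single libraries were left out, below 0 without LT2, LT3 or ST3. UGP2 ranged from -0.051 without ST3 to 0.60. With the most abundant transcript alone GYS1 went to 2.98 and GBE1 from 1.52 to 3.28. These transcripts were ENSSSCT00000044392 of GYS1, at 0 FPKM in LT1, and ENSSSCT00000043353 of GBE1, at 0 FPKM in LT2. PPP1R3G lost its call with log2 fold changes of 2.40 (pseudocount 1), 2.83 (no FPKM filter, no variance trend or the most abundant transcript), 2.68 (quantile normalization), 2.70 (median scaling), and 2.45 to 2.97 when any library but ST2 was left out. PECAM1 and CDH5 lost theirs without the FPKM filter, with quantile normalization, without a variance trend, with the most abundant transcript, without pig 2 and when any library but ST2 was left out, and PECAM1 with median scaling too. The causes were not tested. The block and leaving out ST2 both changed calls of the pathway genes. Depth per gene is unknown, so low FPKM has no counting error here.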

Other observations

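At 21 of the 38 genes the files also list transcripts without annotation on the opposite strand, 37 in all, of which 10 are typed as lncRNA, and 10 of the 14 genes with a mean above 100 FPKM have such a transcript. They were outside the sums. At ALDOA, LNC_006926 and Novel_005231 run on the other strand of chromosome 3 from 18253982 to 18260169, each with 10 exons. Together they had 1561, 1739.9 and 1476 FPKM in LT and 267, 820 and 232 FPKM in ST. This was 20.4% of the ALDOA level on average in LT and 18% in ST, so the level of the opposite strand was also lower in ST1 and ST3 and between them and LT in ST2. At FBP2, LNC_001384 had 31.6, 25.2 and 33.0 FPKM in LT and 3.65, 17.99 and 10.6 FPKM in ST, which was 5.86% and 4.59% of FBP2. At PFKM the share was 4.77% in LT and 4.31% in ST. At PGAM2, PYGM and PKM it was under 1% in every library. Whether these are transcripts of their own was not tested. How strand was used in counting is not given in the sources used here, and where such FPKM came from reads of the gene itself, its printed sum would be too low by about these shares.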
